A study of Mus musculus with 15 samples.

Results

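The phosphatidylinositol 3-kinase-related kinases (PIKKs) are among the longest proteins that mouse embryonic stem cells (mESCs) make, and the 6 mouse genes of the family, *Prkdc*, *Atr*, *Atm*, *Mtor*, *Smg1* and *Trrap*, are described here in 15 ribosome profiling libraries. The count table held 21727 transcripts, 10085 of which passed the filter on low counts and were tested, and each of the 6 genes had 1 transcript among them. The genes were chosen by family membership and for their low ratio of footprints in affinity-purified ribosomes to footprints in all ribosomes of the same clone, set against transcripts of like coding length. That ratio is therefore given below as a description, also where it is compared between the lines. Counts of the 6 genes among the calls of fits over all transcripts stand beside the share called over all transcripts, and nothing is read from them. The study asked which mRNAs are translated by ribosomes carrying the paralogous small subunit proteins Rps27 (eS27) and Rps27l (eS27L). All cells were E14Tg2a.4 mESCs grown with leukemia inhibitory factor and treated with cycloheximide before lysis. In Rps27-FLAG and Rps27l-FLAG cells (eS27-FLAG and eS27L-FLAG in the labels) both alleles of the named gene carried a C-terminal FLAG tag, and passage-matched WT cells carried none. Each tagged line was sampled as 3 independently selected clones, with 1 IP library (ribosome-protected fragments, RPFs, of the ribosomes bound by the FLAG antibody) and 1 total library (RPFs of all pelleted ribosomes before the purification) per clone, and 3 WT samples gave total libraries. No IP from WT cells was analysed here, so the RPFs that the antibody brings down without a tag are not given.

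PIKKs are serine/threonine protein kinases whose catalytic domain resembles that of lipid kinases of the PI3K family. The domain sits near the end of a very long array of helical repeats and is followed by a short C-terminal FATC segment. They act in DNA repair and checkpoint signalling (DNA-PKcs, ATR and ATM), in growth control (mTOR), in nonsense-mediated mRNA decay (SMG1) and, as the inactive family member TRRAP, as a scaffold of histone acetyltransferase complexes. Newly made PIKKs depend on the TTT cochaperone (Telo2, Tti1 and Tti2), which works with the R2TP complex. mESCs divide rapidly with a short G1 phase and rely on ATR signalling to cope with replication stress.

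Short stretches of coding sequence from the catalytic loop and from the end of each CDS are shown first, because they tell what the 6 genes share and where *Trrap* departs from the others. All positions refer to GRCm38 and GENCODE M21, on the strand of the gene. The first set starts at the catalytic loop. Its capitals mark the codons of the run glycine, aspartate, arginine, histidine and an asparagine codon at codon 7 of the stretch, as found by translating each CDS. The *Mtor* stretch crosses an intron.
Prkdc (chr16:15836141-15836170, plus strand, exon 83): GGAGACAGACACctgaacAATttcatggtg
Atr (chr9:95945414-95945443, plus strand, exon 44): GGAGACCGTCATggtgaaAACattcttttt
Atm (chr9:53444029-53444058, minus strand, exon 60): GGCGACAGGCACgtacagAATatcttgata
Mtor (chr4:148547679-148549389, plus strand, exons 50 and 51): GGAGACAGGCACccatccAATctgatgctg
Smg1 (chr7:118157110-118157139, minus strand, exon 43): GGAGACAGACATctggatAATgtcctcata

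*Trrap* had no such run of codons. The run was present in 41 of 18994 complete CDSs of the table (0.216%), and 5 of 12 PI3K and PI4K lipid kinase genes also had it. It lay 171 codons before the end of the CDS in *Atr*, 188 in *Atm*, 208 in *Prkdc* and 213 in *Mtor*, but 1327 in *Smg1*, whose kinase domain is followed by a long insertion. The second set is the last 30 nt of each CDS with its stop codon. Its capitals mark tryptophan codons (TGG), and the *Mtor* stretch again crosses an intron.
Prkdc (chr16:15841946-15841975, plus strand, exon 86): actTGGgaaggaTGGgagcccTGGatgtaa
Atr (chr9:95951595-95951624, plus strand, exon 47): atgtaccttggtTGGaccccatatatgtaa
Atm (chr9:53439746-53439775, minus strand, exon 64): ctcttcccaggaTGGaaagctTGGgtgtga
Mtor (chr4:148556359-148556860, plus strand, exons 57 and 58): tgctacattggcTGGtgtcccttcTGGtaa
Smg1 (chr7:118135541-118135570, minus strand, exon 63): ctgtatgaaggtTGGacagctTGGgtgtga
Trrap (chr5:144858929-144858958, plus strand, exon 71): atggaccctgccTGGcatccaTGGctgtga

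Counted back from the last amino acid codon, position 5 was a tryptophan codon in 6 of 6 PIKK genes, in 249 of 18994 complete CDSs (1.31%) and in 0 of 12 lipid kinase genes. Both features together occurred in 8 CDSs of the table, 5 of which were PIKK genes. No stretch of 28 nt in a PIKK CDS occurred unchanged in another CDS of the table. Matches with mismatches, of other lengths or outside CDSs were not checked.

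The 6 genes lie apart in the genome, *Prkdc* on chromosome 16, *Mtor* on 4, *Smg1* on 7, *Trrap* on 5 and both *Atr* and *Atm*, far from each other, on 9. Their CDSs were 12384 nt (*Prkdc*, 86 coding exons), 11541 nt (*Trrap*, 70), 10974 nt (*Smg1*, 63), 9198 nt (*Atm*, 63), 7923 nt (*Atr*, 47) and 7647 nt (*Mtor*, 57), against a median of 1440 nt over the tested transcripts. Between 40 (*Prkdc*) and 154 (*Mtor*) tested transcripts had a longer CDS. GC content divided the family. It was 54.9% in *Mtor* and 54.1% in *Trrap*, above the median of 52.7%, but only 41.1% to 45.7% in *Atr*, *Atm*, *Prkdc* and *Smg1*.

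Libraries held 3972152 to 8064166 counts, with 3972152 to 6673935 in IP and 6313827 to 8064166 in total libraries. In every library the 8 stem cell markers summed to 3108 to 3888 CPM (counts scaled to library size), and all 8 had a median above 2 CPM. The 5 fibroblast markers summed to 10.9 to 38.7 CPM, and 3 of them had a median above 2 CPM. The 7 markers of differentiated lineages summed to 23.0 to 42.1 CPM, and 2 of them had a median above 2 CPM. None of these markers was at 0 in all libraries. Normalized CPM, used below, also carry TMM factors, set separately for IP and total libraries. No 2 libraries of a condition agreed within sampling noise. Replicate 1 stood apart from replicates 2 and 3 in the Rps27-FLAG and WT conditions, where chi-square per degree of freedom between counts was 7.80 to 10.3 with replicate 1 and 1.78 to 2.54 without it. In Rps27l-FLAG cells replicate 3 was the farthest from the others, with 4.59 to 7.99 against 3.30 (IP) and 4.18 (total) between replicates 1 and 2. In bulk libraries, fewer cells using a gene and less RNA per cell cannot be told apart, and RPFs do not separate the mRNA level from the number of ribosomes on each mRNA.

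Per 1000 nt of counted CDS, the genes were read at a middling level in total libraries (scale of the next sentences: normalized CPM per 1000 nt, median of 9 total libraries with the lowest and highest). *Trrap* was at 27.6 (26.1 to 29.4), *Mtor* at 27.1 (23.1 to 29.2), *Atr* at 22.4 (19.9 to 29.2), *Prkdc* at 18.7 (15.9 to 22.1), *Atm* at 18.5 (16.1 to 19.7) and *Smg1* at 12.6 (11.2 to 13.5). The median of the tested transcripts was 25.4, which put *Trrap* at percentile 52.1 and *Smg1* at 32.8. The only neighbours in this order whose ranges did not overlap were *Atm* and *Smg1*. The order of neighbours held in 6 of 9 libraries for *Trrap* over *Mtor*, 8 for *Mtor* over *Atr*, 9 for *Atr* over *Prkdc*, 5 for *Prkdc* over *Atm* and 9 for *Atm* over *Smg1*. The 6 genes together made up 0.113% to 0.134% of the tested counts of total libraries and 0.0742% to 0.0827% of those of IP libraries, with no overlap between the fractions.

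**Figure D1:**
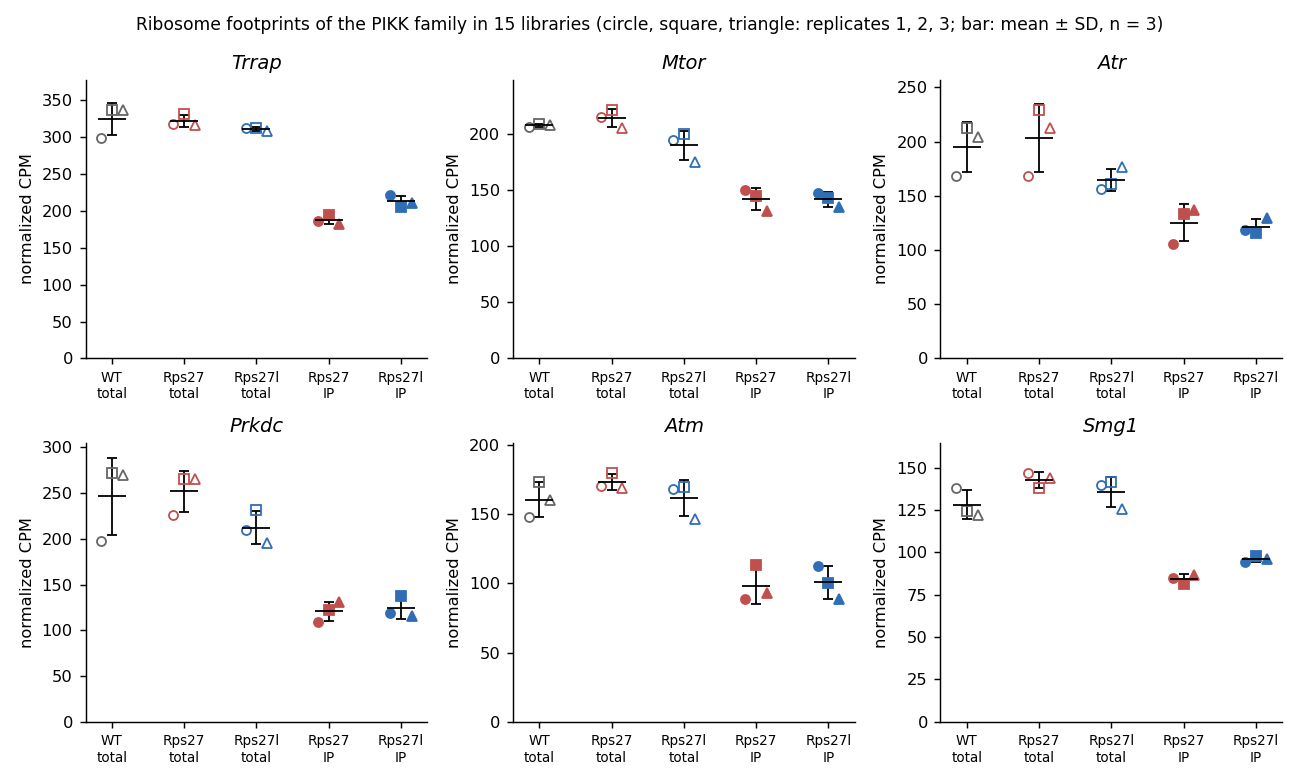
Normalized CPM of each PIKK gene in the 15 libraries, by line and fraction, with open points for total and filled points for IP libraries and bars for the mean ± SD of 3 replicates. In each of the 6 genes the 6 IP libraries lie below the 9 total libraries, and the vertical axes start at 0 and differ between genes.

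*Prkdc* encodes DNA-PKcs, the catalytic subunit of DNA-dependent protein kinase, which joins broken DNA ends. Its normalized CPM in total libraries were 197, 272 and 270 in WT, 226, 265 and 265 in Rps27-FLAG and 210, 231 and 196 in Rps27l-FLAG cells (replicates 1, 2 and 3 here and below). In IP libraries they were 109, 122 and 131 for Rps27-ribosomes and 119, 137 and 115 for Rps27l-ribosomes. Every IP value was below every total value, and IP values of the lines overlapped. Log2 IP/total per clone was −1.05, −1.12 and −1.02 in Rps27-FLAG and −0.81, −0.75 and −0.76 in Rps27l-FLAG cells, so that the IP held 47.9% and 58.4% of the total level by the mean over clones. The 52 tested transcripts of like CDS length (9927 to 15462 nt) had median log2 ratios averaging −0.55 and −0.41. *Prkdc* was lower than all but 1 of them by its mean over clones, in both lines.

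*Atr* encodes the kinase that responds to single-stranded DNA at stalled replication forks. Its total libraries gave 168, 212 and 204 normalized CPM in WT, 169, 230 and 213 in Rps27-FLAG and 156, 161 and 176 in Rps27l-FLAG cells. IP libraries gave 105, 134 and 137 for Rps27-ribosomes and 118, 116 and 130 for Rps27l-ribosomes. Replicate 1 was the lowest of the 3 in WT and in both Rps27-FLAG fractions. Log2 IP/total was −0.68, −0.78 and −0.63 in Rps27-FLAG and −0.40, −0.48 and −0.44 in Rps27l-FLAG cells, against means of −0.41 and −0.34 for the medians of 195 transcripts of like length (6339 to 9813 nt). By the mean over clones, 40 of the 195 were lower than *Atr* in Rps27-FLAG and 67 in Rps27l-FLAG cells. The gap to like length was −0.29 ± 0.06 in Rps27-FLAG and −0.10 ± 0.03 in Rps27l-FLAG cells (SD, n = 3 clones).

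*Atm* encodes the kinase activated by DNA double-strand breaks. Total libraries gave 148, 173 and 161 normalized CPM in WT, 170, 180 and 169 in Rps27-FLAG and 168, 170 and 147 in Rps27l-FLAG cells. IP libraries gave 88.8, 113 and 93.0 for Rps27-ribosomes and 113, 100 and 88.9 for Rps27l-ribosomes. Log2 IP/total was −0.94, −0.67 and −0.86 in Rps27-FLAG and −0.58, −0.76 and −0.72 in Rps27l-FLAG cells, and the lines overlapped. The SD of this ratio over the 3 Rps27-FLAG clones, 0.14, was the largest of the 6 genes. Against 132 transcripts of like length (7362 to 11361 nt) the gap was −0.42 ± 0.15 and −0.35 ± 0.08 (SD, n = 3 clones), with 18 and 12 of them lower than *Atm*. In the Rps27l-FLAG line this gap was close to that of *Prkdc*, −0.37 ± 0.06.

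*Mtor*, the growth kinase shared by mTORC1 and mTORC2, had the smallest deficit of the 6 in both lines by the mean over clones. Its clones overlapped those of *Atr* in each line. Total libraries gave 206, 208 and 208 normalized CPM in WT, 215, 221 and 205 in Rps27-FLAG and 194, 199 and 175 in Rps27l-FLAG cells. IP libraries gave 150, 144 and 131 for Rps27-ribosomes and 147, 143 and 134 for Rps27l-ribosomes, nearly the same set of values. Log2 IP/total was −0.52, −0.62 and −0.65 in Rps27-FLAG and −0.40, −0.48 and −0.38 in Rps27l-FLAG cells. The gap to 211 transcripts of like length (6123 to 9531 nt) was −0.19 ± 0.08 and −0.10 ± 0.04 (SD, n = 3 clones), and 53 and 71 of them were lower.

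*Smg1* encodes the kinase that phosphorylates the RNA helicase Upf1 in nonsense-mediated decay. Total libraries gave 138, 124 and 122 normalized CPM in WT, 147, 138 and 144 in Rps27-FLAG and 140, 142 and 126 in Rps27l-FLAG cells. IP libraries gave 84.9, 81.4 and 86.8 for Rps27-ribosomes and 94.3, 97.8 and 96.1 for Rps27l-ribosomes, so that here the IP values of the lines did not overlap. Log2 IP/total was −0.79, −0.76 and −0.73 in Rps27-FLAG and −0.57, −0.53 and −0.39 in Rps27l-FLAG cells. The gap to 69 transcripts of like length (8808 to 13683 nt) was −0.30 ± 0.01 in Rps27-FLAG cells, the tightest of all, and −0.11 ± 0.09 in Rps27l-FLAG cells (SD, n = 3 clones), where replicate 3 lay only 0.01 under the median of like length.

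*Trrap* encodes the scaffold subunit of the SAGA and TIP60 histone acetyltransferase complexes and has no kinase activity. Total libraries gave 299, 337 and 337 normalized CPM in WT, 318, 331 and 317 in Rps27-FLAG and 312, 313 and 308 in Rps27l-FLAG cells. IP libraries gave 186, 194 and 183 for Rps27-ribosomes and 221, 206 and 211 for Rps27l-ribosomes, again without overlap. Log2 IP/total was −0.77, −0.77 and −0.79 in Rps27-FLAG and −0.50, −0.60 and −0.55 in Rps27l-FLAG cells. The gap to 56 transcripts of like length (9249 to 14238 nt) was −0.25 ± 0.06 and −0.15 ± 0.02 (SD, n = 3 clones), with 15 and 16 of them lower.

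**Figure D2:**
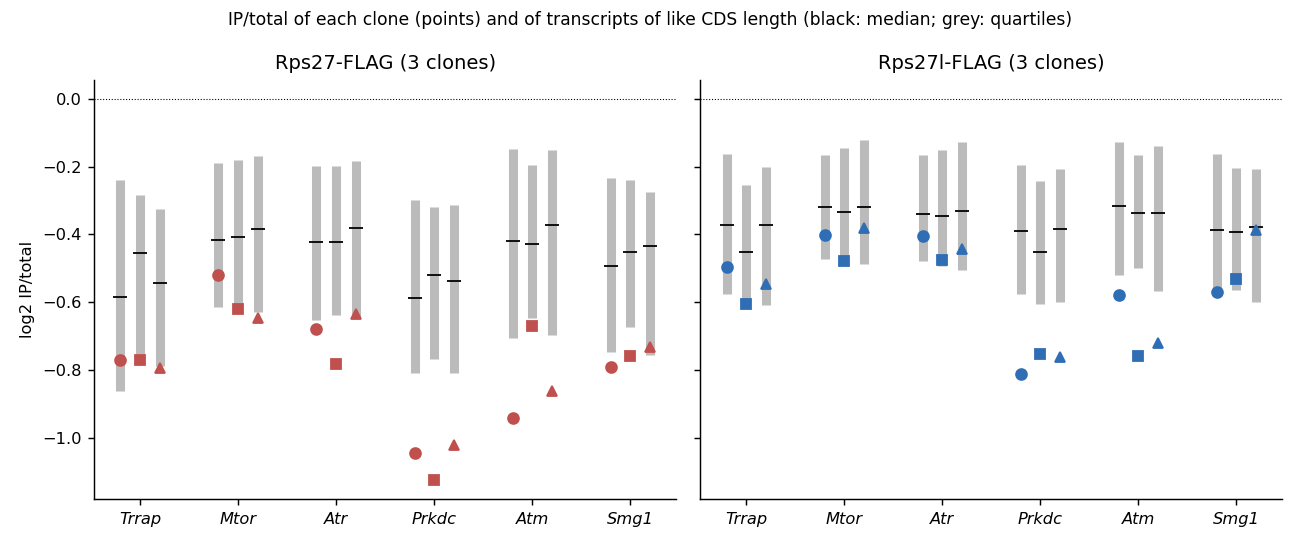
Log2 IP/total of each PIKK gene (points, 1 per clone; circle, square and triangle for replicates 1, 2 and 3) beside the median (black) and quartiles (grey) of transcripts of like CDS length in the same clone. All 36 points lie below 0 and below the median of like length, and *Prkdc* lies below the lower quartile in all 6 clones.

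All 6 genes were thus lower in IP/total than the median transcript of their own length in each of the 6 clones, which is the pattern they were chosen for. By the mean over clones, the gap was widest for *Prkdc* and *Atm* and narrowest for *Mtor* in both lines. In Rps27l-FLAG cells *Mtor* was hardly apart from *Atr* and *Smg1*, at −0.10 ± 0.04, −0.10 ± 0.03 and −0.11 ± 0.09 (SD, n = 3 clones). In the edgeR fits over all tested transcripts, 6 of 6 genes had lower RPFs in IP than in total in each line, where 5.34% of tested transcripts (Rps27-FLAG) and 2.27% (Rps27l-FLAG) were called lower. With the clone as a block, 4154 and 3128 transcripts (41.2% and 31.0%) were called in either direction in place of 572 and 313. Of the 10085 tested, 2308 and 1919 were then called lower in IP, with 6 of 6 genes among them in each line. Without Rps27-FLAG replicate 1, which stood apart, 1817 of 10085 transcripts were called in that line. Of these, 1140 were lower in IP, with 6 of 6 genes among them. Leaving out Rps27l-FLAG replicate 3 gave 319 calls, of which 241 were lower in IP, again with 6 of 6 genes. Without Rps27-FLAG replicate 2 or 3, or without Rps27l-FLAG replicate 1 or 2, neither any transcript nor any of the 6 genes was called in that line, while their log2 fold changes stayed between −1.09 and −0.39. All 3 IP libraries lay below all 3 total libraries in 6 of 6 genes in both lines, and in 17% of tested transcripts in Rps27-FLAG and 14.2% in Rps27l-FLAG cells. Since the rule used these measures, nothing is read from these counts.

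CDS length moved with the ratio over the whole table. The median log2 fold change of IP over total was −0.01 in Rps27-FLAG and −0.03 in Rps27l-FLAG cells over all tested transcripts, and −0.77 and −0.52 over the 6 genes. When the trend of log2 CPM with CDS length was removed from each library, the fold changes of the 6 genes shrank to between −0.60 (*Prkdc*) and −0.23 (*Mtor*) in Rps27-FLAG and between −0.42 (*Prkdc*) and −0.14 (*Mtor*) in Rps27l-FLAG cells, all still negative. Under this setting 160 transcripts (1.59%) were called in Rps27-FLAG cells, with 2 of the 6 genes among them, and 7 (0.0694%) in Rps27l-FLAG cells, with 0 of 6. With the clone as a block as well, 3078 (30.5%) and 2236 (22.2%) were called, 6 of 6 genes among them in both lines. The part of CDS length in the values of single genes was not tested beyond this.

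**Figure D3:**
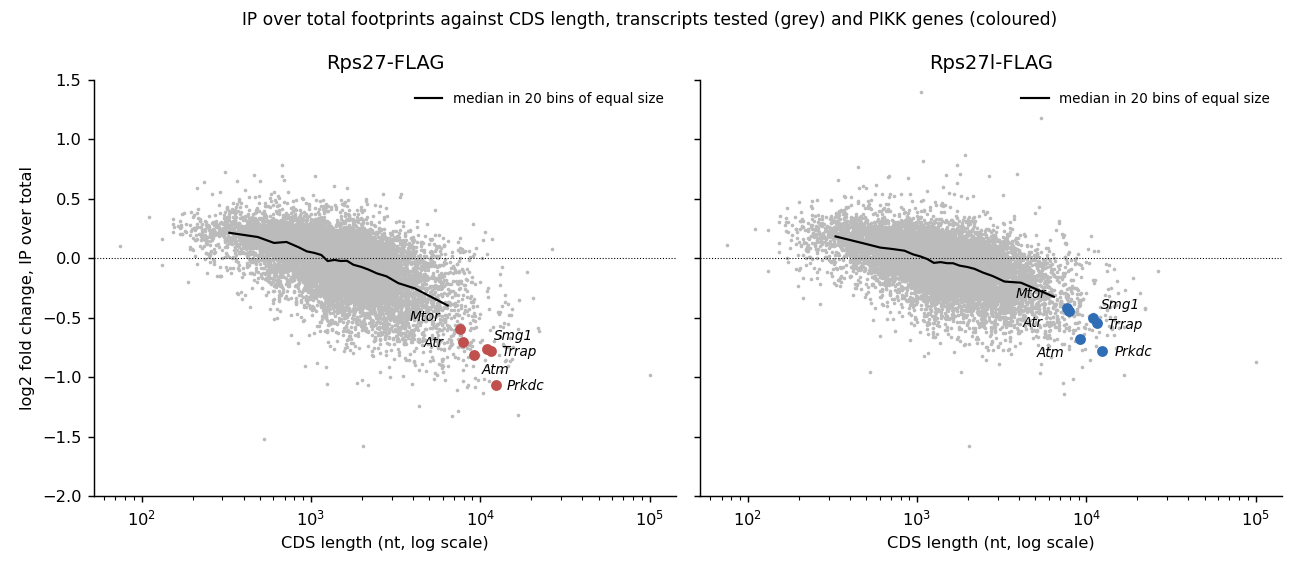
Log2 fold change of IP over total RPFs against CDS length (log scale) for the tested transcripts in each tagged line, with the PIKK genes in colour and a black line for the median in 20 bins of equal size. The median falls as the CDS gets longer, and the 6 genes lie at the long end and below 0, *Prkdc* lowest.

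Between the lines, the ratio was higher among Rps27l-ribosomes than among Rps27-ribosomes for all 6 genes. The ratios of both lines were used to choose the genes, so that their difference is a description. The difference in mean log2 IP/total (Rps27l-FLAG minus Rps27-FLAG) was 0.29 ± 0.04 for *Prkdc*, 0.26 ± 0.06 for *Smg1*, 0.26 ± 0.05 for *Atr*, 0.23 ± 0.03 for *Trrap*, 0.17 ± 0.05 for *Mtor* and 0.14 ± 0.10 for *Atm* (SE, n = 3 clones per line). Transcripts of like length also had higher ratios in Rps27l-FLAG cells, by medians of 0.16, 0.11, 0.08, 0.14, 0.08 and 0.07 in the same order. The lowest Rps27l-FLAG clone was above the highest Rps27-FLAG clone in 5 of 6 genes, all but *Atm*, and in 9.08% of tested transcripts. The fit with clone blocks and a limit of 0.25 on the log2 difference called 0.476% of tested transcripts higher among Rps27l-ribosomes, with 3 of the 6 genes among them, from which nothing is read. Fitted log2 differences of the 6 genes ran from 0.15 (*Atm*) to 0.29 (*Prkdc*), and from 0.14 to 0.29 both by DESeq2 and without clone blocks. With the length trend removed they were smaller, from 0.05 (*Atm*) to 0.18 (*Prkdc*), and all still positive.

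By the means over clones, the difference between the lines fell in different fractions for different genes. Contrasts between genes were not tested. For *Atr*, the mean log2 level of total RPFs was lower by 0.30 ± 0.14 in Rps27l-FLAG than in Rps27-FLAG cells. That of IP RPFs differed by −0.04 ± 0.13 (SE, n = 3 clones per line, here and below). *Prkdc* and *Mtor* were alike in this, with total RPFs lower by 0.25 ± 0.10 and 0.18 ± 0.07 in Rps27l-FLAG cells. Their IP differences were 0.04 ± 0.11 and −0.00 ± 0.07. *Smg1* and *Trrap* had the opposite make-up, with IP RPFs higher by 0.19 ± 0.03 and 0.18 ± 0.04 among Rps27l-ribosomes and total RPFs at −0.08 ± 0.06 and −0.05 ± 0.02. *Atm* had an IP difference of 0.04 ± 0.14 and a total difference of −0.10 ± 0.07. IP libraries of the lines overlapped in *Prkdc*, *Atr*, *Atm* and *Mtor*, and total libraries of the lines overlapped in all genes but *Mtor* and *Trrap*. IP and total libraries were scaled separately, so that each difference is relative to the other transcripts of that fraction.

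**Figure D4:**
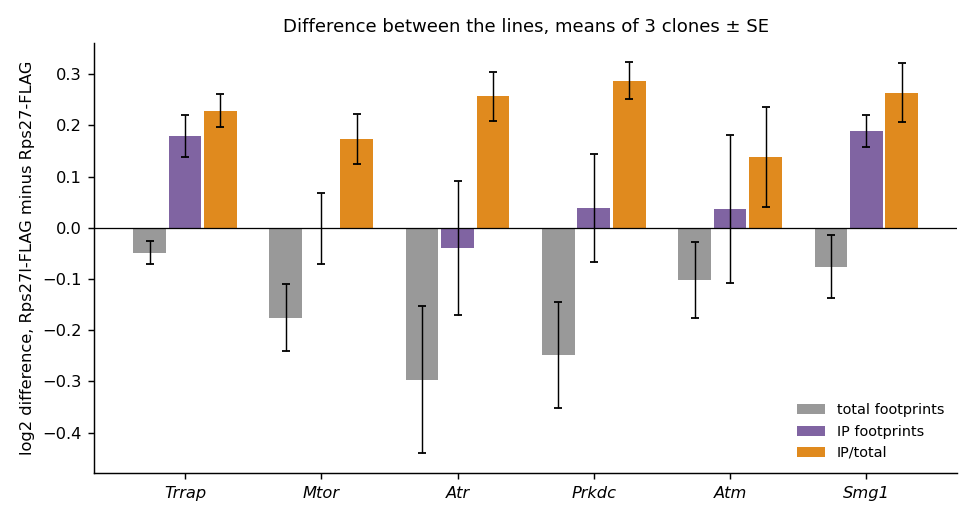
Mean log2 difference between Rps27l-FLAG and Rps27-FLAG cells in total RPFs, IP RPFs and their ratio for each PIKK gene, with bars for the SE of 3 clones per line. The ratio is higher in Rps27l-FLAG cells in all 6 genes, with lower total RPFs as the larger part in *Prkdc*, *Atr*, *Mtor* and *Atm* and higher IP RPFs as the larger part in *Smg1* and *Trrap*.

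Total RPFs asked whether the tagged lines differ in overall translation of these genes, and here WT cells entered as control. None of the 6 genes passed the test in any of the 3 comparisons, nor did any other tested transcript (0% called in Rps27-FLAG against WT, 0% in Rps27l-FLAG against WT and 0% in Rps27l-FLAG against Rps27-FLAG, edgeR quasi-likelihood test, adjusted p under 0.05). At an unadjusted p under 0.05, 294, 574 and 580 transcripts were below the threshold, and DESeq2 called 0 in each comparison. With the replicate number as a block, since barcoded RPFs were pooled by replicate before library construction, 1, 144 and 137 transcripts were called, with none of the 6 genes among them. Against WT, log2 fold changes of the 6 genes lay between −0.01 (*Trrap*) and 0.16 (*Smg1*, 95% interval −0.00 to 0.32) in Rps27-FLAG cells and between −0.24 (*Atr*, −0.51 to 0.02) and 0.08 (*Smg1*, −0.08 to 0.24) in Rps27l-FLAG cells.

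Between the tagged lines all 6 log2 fold changes of total RPFs were negative, with a median of −0.14 against 0.00 over all tested transcripts. They were −0.31 for *Atr* (SE 0.12, edgeR adjusted p = 0.803), −0.25 for *Prkdc* (SE 0.12, edgeR adjusted p = 0.803) and −0.17 for *Mtor* (SE 0.06, edgeR adjusted p = 0.803). For *Atm*, *Smg1* and *Trrap* they were −0.10, −0.07 and −0.05. The 95% intervals, not adjusted for the number of transcripts, were −0.57 to −0.04 for *Atr*, −0.52 to 0.02 for *Prkdc* and −0.32 to −0.03 for *Mtor*. Adjusted p-values of the 6 genes ran from 0.803 to 0.858 here, and that of *Atr* was 0.0635 with the replicate block. These total libraries are also the denominators of the ratios above, so that a low total value and a high ratio of the same clone are not separate evidence. The genes were chosen by those ratios in both lines. The shared sign of the total differences is therefore a description, and the p-values take no account of that choice. Total libraries of the tagged lines enter the comparisons with WT as well.

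Over the 15 libraries, log2 normalized CPM of the genes were correlated, with r from 0.774 to 0.960. These correlations are descriptions, since the 12 tagged libraries came from 6 clones and the points differ mainly between IP and total libraries. Within the 9 total libraries the picture was less uniform. *Prkdc* and *Trrap* were then the most alike (r = 0.881), while *Smg1* ran against *Trrap* (r = −0.475), *Atr* (r = −0.345) and *Prkdc* (r = −0.191). In total libraries of WT and Rps27-FLAG cells, replicate 1, which stood apart, was highest for *Smg1* and lowest for *Prkdc* and *Atr*. The part of this replicate in the negative r values was not tested. Over all 15, *Trrap* and *Atm* were the most alike pair of the family (Pearson r = 0.960 over 15 libraries) and *Atr* and *Smg1* the least (r = 0.774). The nearest transcripts outside the family were *Dync1h1*, the heavy chain of cytoplasmic dynein, and *Mdn1*, an AAA ATPase of ribosome assembly, for *Prkdc* (r = 0.984 for both), and *Cyfip1* and the giant ubiquitin ligase gene *Herc2* for *Trrap* (r = 0.993 and 0.992). *Mms19* and *Ltn1* were nearest to *Atr* (r = 0.986 for both), *Myo5a* and *Copg1* to *Atm* (r = 0.983 and 0.980), *Pdpr* and *Fnip2* to *Mtor* (r = 0.985 and 0.976), and *Rev3l*, the catalytic subunit of DNA polymerase zeta, and *Anapc4* to *Smg1* (r = 0.976 and 0.974).

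Partners of the kinases were listed by function, to set the proteins they work with beside the kinases. The lists were chosen with earlier results of these data known, so that the shares below are descriptions. No partner in any of the 8 lists was called in a comparison of total RPFs. For IP over total, 10 of 92 tested partners (10.9%) were called among Rps27-ribosomes and 8 (8.70%) among Rps27l-ribosomes, all lower in IP, where 5.34% and 2.27% of all tested transcripts were called lower. With the clone as a block, 49 (53.3%) and 40 (43.5%) were called in either direction, against 41.2% and 31.0% of all tested transcripts. With the length trend removed instead, 5 (5.43%) and 0 (0%) were called in either direction, against 1.59% and 0.0694% of all tested transcripts. No partner, and no other tested transcript, was called without Rps27-FLAG replicate 2 or 3 in that line. The same held without Rps27l-FLAG replicate 1 or 2 in the other. Leaving out Rps27-FLAG replicate 1 gave 23 of 92 partners, where 1817 of all 10085 tested transcripts were called. Of the 7 TTT and R2TP chaperone genes, *Tti1* (CDS 3255 nt) was called lower in IP among Rps27l-ribosomes, with a log2 fold change of −0.40 ± 0.06 (SE, n = 3 per fraction, edgeR adjusted p = 0.0201), and had the same value, −0.40 ± 0.12 (edgeR adjusted p = 0.107), among Rps27-ribosomes, where it did not pass. The list medians were 0.04 in both lines. These values of *Tti1* and the list are from the fit without clone blocks. Under the block 4 of the 7 genes were called in Rps27-FLAG and 2 in Rps27l-FLAG cells, 2 of them lower in IP in each line. The shares over all tested transcripts were then 41.2% and 31.0%.

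The mTOR list stood lowest among the protein partners. Of its 11 tested genes, 4 were lower in IP among Rps27-ribosomes and 3 among Rps27l-ribosomes, with list medians of −0.39 and −0.23. They were *Rptor*, the substrate-binding subunit of mTORC1 (−0.56 and −0.47), *Rictor*, the defining subunit of mTORC2 (−0.74 and −0.61), *Tsc2*, the GTPase activator that restrains mTORC1 (−0.65 and −0.44), and, among Rps27-ribosomes alone by this threshold, the mTORC2 subunit gene *Mapkap1* (−0.78). The CDSs of *Rptor*, *Rictor* and *Tsc2* were 4005, 5124 and 5226 nt, and that of *Mapkap1*, at 1566 nt, was near the median of tested transcripts.

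In the other protein lists single genes passed in the fit without clone blocks. With the clone as a block, genes of every list were called in Rps27-FLAG cells, as were 41.2% of all tested transcripts in either direction. By share, these protein lists ran from 10 of 31 (SAGA and TIP60 subunits) to 6 of 9 (nonsense-mediated decay partners), some genes higher and some lower in IP. Nothing is read from these counts, and the values below are those without the block. *Timeless*, a fork protection gene, was lower in IP in both lines (−0.54 and −0.45) among 14 ATR checkpoint partners, and *Smg5*, which recruits phosphatase and decay factors to Upf1, in both lines (−0.68 and −0.48) among 9 nonsense-mediated decay partners. *Ep400*, the chromatin remodeling ATPase of the TIP60 complex with a CDS of 9105 nt, was lower among Rps27-ribosomes (−0.52), and it was the only one of 31 subunits of SAGA and TIP60. None of 5 tested DNA-PK and end joining partners and none of 8 ATM partners was called in either line without the block. Under the block 2 and 4 of them were called in Rps27-FLAG cells, against 41.2% of all tested transcripts. In Rps27l-FLAG cells it was 0 and 4, against 31.0%.

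The lipid kinases share the catalytic fold but not the length. Of 10 tested genes, *Pi4ka* (−0.77), *Pik3c2a* (−0.67) and *Pik3cb* (−0.61) were lower in IP among Rps27-ribosomes, and *Pik3c2a* (−0.54) and *Pi4ka* (−0.50) among Rps27l-ribosomes. Their CDSs were 6132, 5058 and 3192 nt, and the list medians were −0.24 and −0.40. Between the lines, 2 partners were called higher among Rps27l-ribosomes. They were *Rad50*, a subunit of the MRN complex that activates ATM (log2 difference 0.27 ± 0.05, edgeR adjusted p = 5.2e-04), and *Pi4ka* (0.26 ± 0.06, edgeR adjusted p = 0.00635), both with a CDS longer than the median and neither called once the length trend was removed or without clone blocks. Of the partners, 1 was called without Rps27-FLAG replicate 3 and without Rps27l-FLAG replicate 1 or 2.

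**Figure D5:**
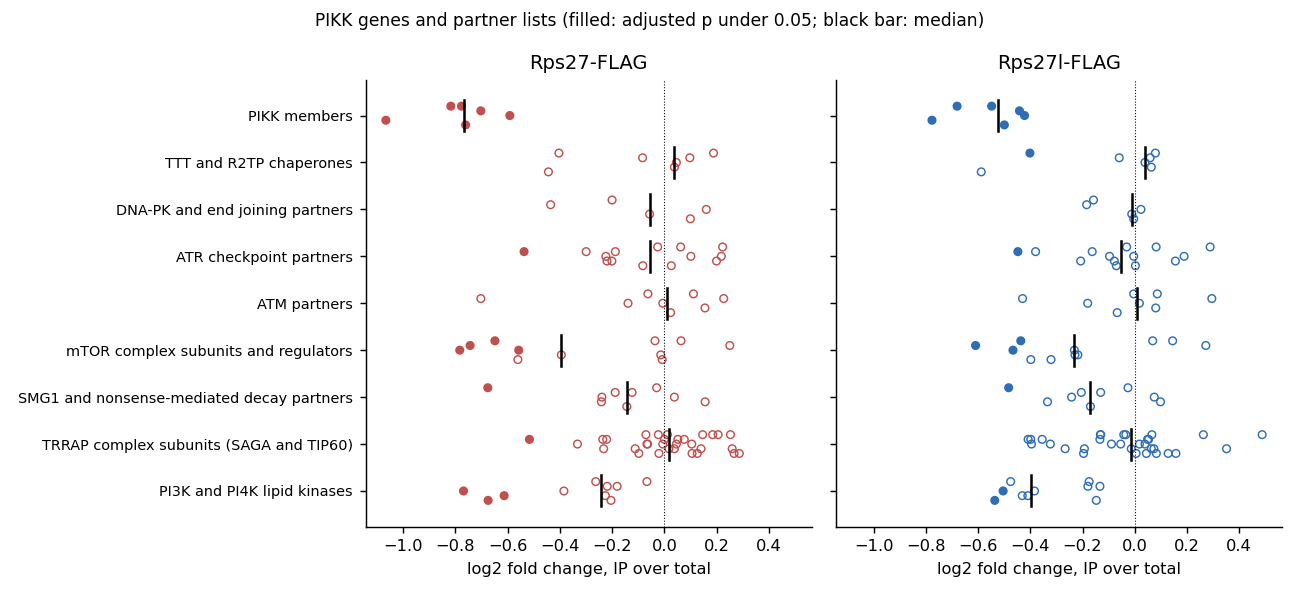
Log2 fold change of IP over total RPFs for the tested genes of each list in both tagged lines, with filled points for adjusted p under 0.05 and black bars for list medians. The 6 PIKK genes have medians of −0.77 and −0.52, and the mTOR list (−0.39 and −0.23) and the lipid kinases (−0.24 and −0.40) lie between them and the other lists.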

How the data were processed

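RPFs were counted by the authors on GENCODE transcripts, without the first 15 and last 5 codons of each CDS, and the deposited values are whole-number counts of RPFs per transcript. Per the labels' processing notes, cutadapt 2.4, UMI-tools 1.0.1 and Bowtie2 2.3.4.3 were used with GRCm38 (mm10). Transcripts were matched to GENCODE M21 (21713 of 21727). Transcripts of mitochondrial genes (13) were dropped, and a transcript was tested with over 2 CPM in at least 14 of 15 libraries (10085). IP and total libraries were scaled separately by TMM, and 0.5 counts were added for log2 ratios. Tests were edgeR 4.0.16 quasi-likelihood fits over all tested transcripts with Benjamini-Hochberg adjustment, called at 0.05. Totals were fitted by line (9 libraries), IP against total by fraction (6 libraries) and the line difference by clone and fraction within line (12 libraries, log2 limit 0.25). IP and total libraries of a number come from the same clone (residual correlations 0.468 to 0.790). Between total libraries of different lines these were −0.164 to 0.713. Alternatives were limma 3.58.1 with voom, DESeq2 1.42.0, its size factors, no filter, removal of the length trend (loess, span 0.5), the clone or replicate block and each clone left out. The fits were also run on simulated counts that held no clone effects and no trend with CDS length, so that nothing is read from this. The 6 genes and all lists were chosen with earlier results of these data known. Genes named were the 6, up to 3 called partners per list and comparison, and the 2 nearest transcripts by correlation.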

Additional observations from a re-analysis of the deposited data

Results flagged for a closer look

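In 2 partners of the PIKK genes, the test of the difference between the lines itself was past the threshold and the limit of 0.25 on its size (edgeR quasi-likelihood test, clone blocks, all tested transcripts). The difference in log2 IP/total, Rps27l-FLAG minus Rps27-FLAG, was 0.27 for *Rad50* and 0.26 for *Pi4ka*. CDS length moved with these values, and neither was called with the length trend removed or without clone blocks. DESeq2 gave no adjusted p for either.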

How the results depend on the processing

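No log2 fold change of a PIKK gene that was called under any setting changed sign. In comparisons of total RPFs, the replicate block called 1 transcript in Rps27-FLAG against WT, 144 in Rps27l-FLAG against WT and 137 between the tagged lines, in place of 0, and changed no call of the 6 genes, which numbered 0 under all settings. With a clone left out, 0 transcripts were called in Rps27-FLAG against WT and 0 to 1 in the other 2 comparisons, the 1 without Rps27l-FLAG replicate 2. For IP over total in Rps27-FLAG cells, 4154 transcripts were called with the replicate block, 160 with the length trend removed and 3078 with both, and 0 to 1817 with a clone left out. In Rps27l-FLAG cells the counts were 3128, 7, 2236 and 0 to 319. Of the 6 genes, 2 in Rps27-FLAG and 0 in Rps27l-FLAG cells were called with the length trend removed, and 0 to 6 with a clone left out. Of the partners, 49 and 40 were called with the replicate block, 5 and 0 with the length trend removed and 40 and 31 with both, with 0 to 23 and 0 to 7 when a clone was left out. In the line difference 58 transcripts were called, 0 with no replicate block, 9 by DESeq2, 151 with no limit on the fold change, 29 with the length trend removed and 45 to 61 with a clone left out. DESeq2 gave no adjusted p for 9189 of 10085 transcripts in this comparison, the 6 genes and both called partners included, so that it has no count for them. Its count of partners for IP over total in Rps27-FLAG cells is not given for the same reason. The 3 calls among the 6 genes and the 2 among partners went to 0 with no replicate block, where the log2 differences of the 6 genes moved by little, and with the length trend removed, where they were smaller, and to 2 to 4 and 1 to 3 with a clone left out. The causes were not tested. The median of the 6 genes' gaps to like CDS length within each clone, averaged over clones, was −0.29 and −0.15. It was −0.31 and −0.17 within a factor of 1.5, −0.14 in Rps27l-FLAG cells within a factor of 1.1 and −0.17 there with 5 counts added. With a clone left out it was −0.29 to −0.28 and −0.15 to −0.14. The median level per 1000 nt stayed between 20.2 and 22.2 with a library left out.

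The lines were sampled by 3 clones each, and the lowest count of a PIKK gene in a library was 348. Ratios and total levels rest on the same total libraries, no IP from WT cells was analysed here, and RPFs carry no separate measure of mRNA level.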
